A study of Mus musculus with 2 samples.

Results

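The retina of the mouse carries a pair of cone opsins, and both were followed here cell by cell. *Opn1sw* encodes the S-opsin, which absorbs short wavelengths into the ultraviolet, and *Opn1mw* encodes the M-opsin, which absorbs middle wavelengths. The 2 genes were chosen by symbol out of 32285 genes in the count tables, and they were read as raw UMIs (unique molecular identifiers, one per captured RNA molecule) in cone barcodes, 650 of 12529 kept barcodes (5.19%; 95% binomial interval 4.81 to 5.59) in WT and 1209 of 18395 (6.57%; 6.22 to 6.94) in ND6. Each group was 1 droplet-based 3′ scRNA-Seq library of retina from male mice aged 7 months. The study's methods name C57BL/6J for the WT mice and give no separate strain for the mutant line. The WT group carried no mutation by its label, and the ND6 group carried the 13997 G>A change in *mt-Nd6*, a mitochondrially encoded subunit of complex I. The study's methods describe the mutant line as made through fused female embryonic stem cells and kept by crossing mutant females with WT males, and how many animals entered each library is not given in the sources used here. With 1 library per group, no difference between WT and ND6 has a replicate check, so no p-value is given, and every interval covers counting error only.

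In most vertebrates a cone holds one opsin, but many cones of the mouse make both. M-opsin prevails toward the dorsal retina and S-opsin toward the ventral retina, and a minority of genuine S cones makes S-opsin alone. The thyroid hormone receptor THRB is needed for M-opsin and restrains S-opsin, its partner RXRG restrains S-opsin in dorsal cones, RORB and RORA activate *Opn1sw*, and CRX and OTX2 activate photoreceptor genes in general. VAX2 is a ventral retinal homeodomain factor, and NR2F1 and NR2F2 (COUP-TF factors) are retinal positional factors that act on opsin patterning. The labels do not give the position in the retina from which a cell came.

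*Opn1sw* (ENSMUSG00000058831) lies on the minus strand at chr6:29376671-29388468 (mm10, GENCODE M21), and its 3′ end overlaps the 3′ end of *Calu*, on the plus strand, by 440 bases. *Opn1mw* (ENSMUSG00000031394) lies on the plus strand at chrX:74127464-74150760, and *Tex28*, on the minus strand, ends 184 bases beyond it. Neither neighbour followed the opsins, since *Calu*, an endoplasmic reticulum calcium-binding protein, had 33.4 CPM in WT cone barcodes and 29.3 in rod-gene barcodes (31.0 and 22.7 in ND6), and *Tex28* had 4 UMIs in WT cone barcodes and 3 in ND6. CPM is the number of UMIs of a gene per 1000000 UMIs of all genes in the same barcodes. Since 3′ counting gives 1 tag per molecule, levels of the 2 opsins were set side by side without scaling to transcript length, and whether their 3′ ends are captured equally was not tested.

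The 250 bases before each transcript start are shown because the factors named above act on opsin promoters and because both genes were found in the same barcodes. Both windows come from RefSeq on GRCm38.p6, with 2 of 2 members matched. They are read 5′ to 3′ on the strand of the gene, chr6:29380514-29380763 minus and chrX:74127216-74127465 plus. Capitals mark matches, on either strand, to 3 motifs: TAATCC and TAATCT, core letters recognised by CRX and OTX2, and AGGTCA, a half-site of nuclear receptors such as RORB, THRB and RXRG.
*Opn1sw*: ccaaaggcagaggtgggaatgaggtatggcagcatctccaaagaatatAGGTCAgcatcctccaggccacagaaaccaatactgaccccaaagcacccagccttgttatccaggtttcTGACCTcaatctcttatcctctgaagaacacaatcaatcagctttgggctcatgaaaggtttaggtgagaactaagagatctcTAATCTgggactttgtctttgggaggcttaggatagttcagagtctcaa
*Opn1mw*: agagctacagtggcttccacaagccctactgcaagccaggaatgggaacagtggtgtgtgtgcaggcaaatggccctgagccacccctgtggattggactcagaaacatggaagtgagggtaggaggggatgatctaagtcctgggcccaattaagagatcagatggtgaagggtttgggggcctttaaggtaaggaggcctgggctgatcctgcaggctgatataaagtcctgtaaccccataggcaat

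The *Opn1sw* window held AGGTCA at 202 bases before the start, the same half-site on the opposite strand at 132 bases and TAATCT at 49 bases. The *Opn1mw* window held none of these letters, which says nothing about binding. Of 32851 promoter windows of the same length, 14.0% held AGGTCA, 7.31% held TAATCT and 6.25% held TAATCC. The *Opn1sw* window overlapped no annotated exon, though it lies within the span of the gene because a longer *Opn1sw* transcript starts upstream. The *Opn1mw* window overlapped 1 annotated exon at its very end, since the annotated gene start lies just inside it.

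Cone barcodes were kept barcodes (more than 400 UMIs and 200 genes, and an mtDNA-encoded share of 20% or less) with at least 3 UMIs and 0.2% of UMIs from *Arr3* (cone arrestin), *Gnat2* (cone transducin), *Pde6h* and *Pde6c* (cone phosphodiesterase subunits) and *Gngt2* (a cone transducin subunit). Cone genes that the gate did not use bore out the label. The cone channel gene *Cngb3* was higher in cone than in rod-gene barcodes (those with rod transcripts that passed no other gate) by a log2 ratio of 5.61 in WT and 4.58 in ND6, *Cnga3* by 5.18 and 4.24 and *Rxrg* by 5.25 and 4.13. *Guca1a*, which rods use as well, did not separate them (-0.05 and -0.06). The cone barcodes also held much rod RNA: the summed rod list (8 genes of 8 detected) took 5.47% of WT and 5.90% of ND6 cone UMIs, beside 7.64% and 7.61% in rod-gene barcodes. The median depth was 6963.5 UMIs per cone barcode in WT and 5698 in ND6, the median mtDNA share was 8.86% and 6.41%, and the WT library lost more barcodes to the mtDNA limit (45.9% against 17.3%). No cone barcode sequence was shared between the libraries, while 59 kept barcodes were. Doublets were not called.

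Both opsins were concentrated in the cone barcodes. In WT, 31334 *Opn1sw* UMIs and 10625 *Opn1mw* UMIs lay there, 90.3% and 89.1% of those in kept barcodes. In ND6 they numbered 40367 and 16766, or 88.1% and 87.7%. The level of *Opn1sw* was 3775 CPM (95% Poisson interval 3734 to 3817) in WT and 3330 (3298 to 3363) in ND6. For *Opn1mw* it was 1280 CPM (1256 to 1305) in WT and 1383 (1362 to 1404) in ND6. S-opsin RNA thus made up the larger part of the opsin RNA in both libraries, with 0.339 *Opn1mw* UMIs per *Opn1sw* UMI in WT and 0.415 in ND6.

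Outside the cone gate, both opsins were far lower in every gated type with more than 2 barcodes. Rod-gene barcodes held *Opn1sw* at 78.0 CPM in WT and 114 in ND6, and *Opn1mw* at 29.8 and 48.1. The cone level was 48.4-fold (*Opn1sw*) and 43.0-fold (*Opn1mw*) higher in WT and 29.2-fold and 28.8-fold higher in ND6. Among the remaining types in WT, *Opn1sw* was listed in the order RPE (69.2 CPM), bipolar (33.0), microglia or macrophage (25.6), RGC (12.3), Müller (8.51) and amacrine (7.00), and each of these neighbours overlapped the next in its counting interval. *Opn1mw* in the same types lay between 0 UMIs, in 32 RGC barcodes whose depth allows up to 18.5 CPM, and 24.7 CPM in RPE barcodes. In ND6 these types held *Opn1sw* at 21.4 (amacrine) to 84.8 CPM (microglia or macrophage) and *Opn1mw* at 16.7 (amacrine) to 60.1 CPM (Müller). Rod-gene barcodes without any UMI of the 5 gate genes, shown for comparison, held 25.2 CPM *Opn1sw* and 11.3 CPM *Opn1mw* in WT and 54.2 and 27.9 in ND6. The interval of *Opn1sw* in WT RPE barcodes (37.8 to 116 CPM) lay above that level and included the 78.0 CPM of all rod-gene barcodes, and those of the other WT types from bipolar to amacrine included it. In ND6 the RPE interval (52.9 to 90.9 CPM) included the level of the comparison set. Barcodes of 10 to 100 UMIs held more, with *Opn1sw* at 557 CPM in WT and 542 in ND6, and the part of RNA from such barcodes in the low levels was not tested.

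**Figure D1:**
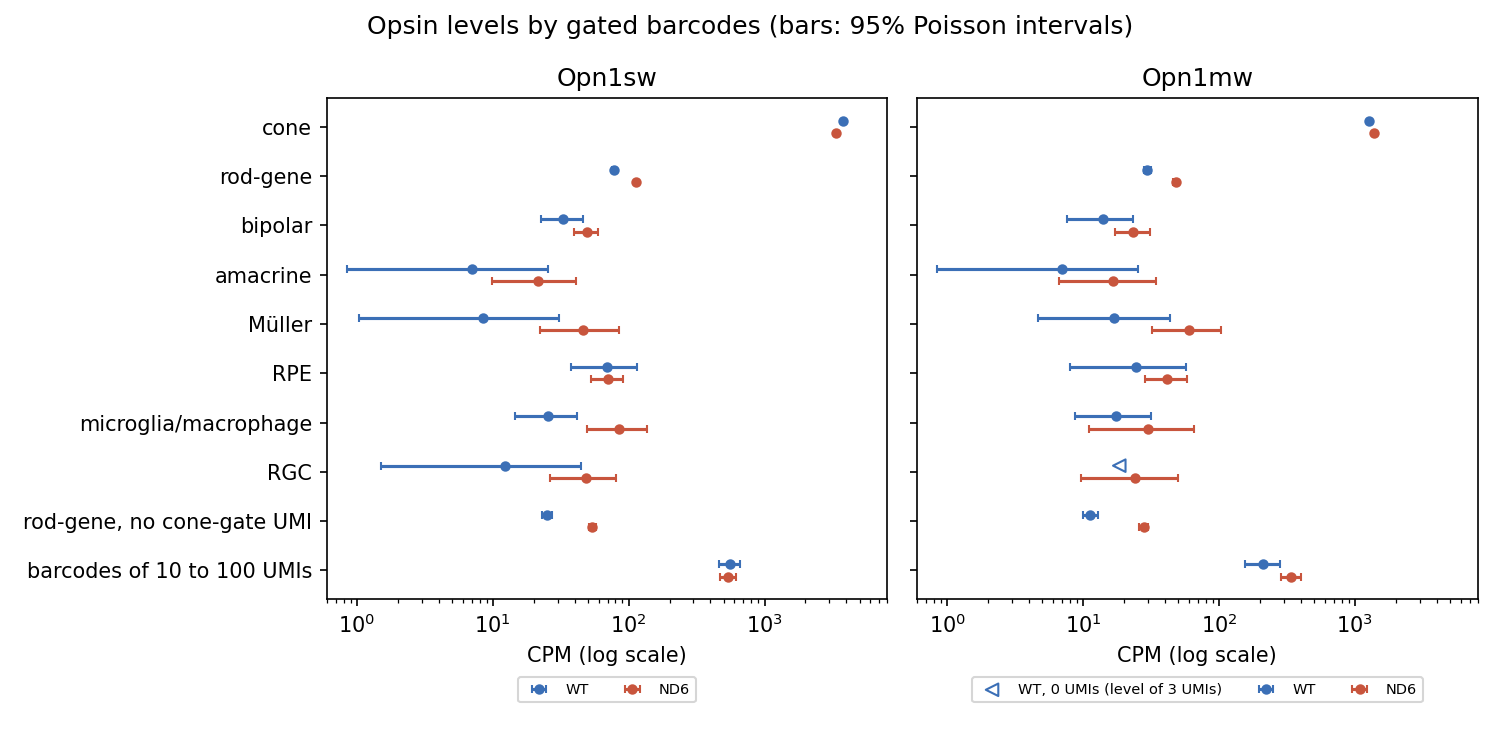
Level of *Opn1sw* (left) and *Opn1mw* (right) in CPM on a log axis for each gated type with more than 2 barcodes, for rod-gene barcodes without a UMI of the cone gate genes and for barcodes of 10 to 100 UMIs. Points are sums over barcodes of 1 library, bars are 95% Poisson intervals, and an open triangle marks the level of 3 UMIs where none was counted. Cone barcodes stand alone above 1000 CPM, and the other cell types plotted lie under 120 CPM.

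The question put to the mutant was whether the opsins or their ratio differed in its cones. Over all cone barcodes *Opn1sw* was lower in ND6 by a log2 ratio of -0.18 (-0.20 to -0.16) and *Opn1mw* was higher by 0.11 (0.08 to 0.15). Neither passed the log2 ratio of 0.5 used to call a gene, whereas among 12450 genes tested 13.2% were higher by that measure and 7.83% lower. The ratio of *Opn1mw* to *Opn1sw*, which does not depend on scaling to the library total, was higher in ND6 by 0.29 (0.25 to 0.33).

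These pooled differences depended on which cone barcodes were counted. With the gate raised to 2% of UMIs from the 5 cone genes, a choice made after seeing the data, 172 WT and 301 ND6 barcodes remained, in which the rod factor gene *Nrl* was lower than in all cone barcodes (407 CPM in WT and 404 in ND6, against 1687 and 1556). There *Opn1sw* reached 9676 CPM in WT and 10731 in ND6, so its log2 ratio turned to 0.15 (0.11 to 0.19). *Opn1mw* reached 4368 and 4766 CPM, a ratio of 0.13. The *Opn1mw* to *Opn1sw* ratio was then 0.451 in WT and 0.444 in ND6, a log2 difference of -0.02 (-0.09 to 0.05). The direction of the *Opn1sw* difference and of the ratio difference between WT and ND6 was therefore not settled by these libraries.

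Depth divided the cone barcodes in the same way. In barcodes of more than 3000 and up to 10000 UMIs, *Opn1sw* was at 8466 CPM in WT and 7572 in ND6 and *Opn1mw* at 3227 and 3197, with *Nrl* at 677 and 866 CPM. Above 10000 UMIs the opsin levels were lower, at 2518 and 2087 CPM for *Opn1sw* and 766 and 845 for *Opn1mw*, and *Nrl* was at 1947 and 1770 CPM, close to the 2338 and 2034 CPM of rod-gene barcodes of that depth. The number of opsin UMIs per barcode was much less different: their median was 65 in WT and 61 in ND6 in that range, and 94 and 65 above it. The shallow barcodes also held much *Nrl*, at 2362 and 1025 CPM in those of up to 1000 UMIs and 1954 and 1105 in those of up to 3000, so the level of rod RNA did not follow depth. Its part in the opsin levels was not tested. The log2 ratio of ND6 over WT for *Opn1sw* was 1.44, 0.28, -0.16 and -0.27 from the shallowest to the deepest of 4 ranges (up to 1000, up to 3000, up to 10000 and above), and that for *Opn1mw* was 1.02, 1.14, -0.01 and 0.14.

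UMIs of both opsins were found in 368 of 650 WT cone barcodes (56.6%; 95% binomial interval 52.7 to 60.5) and in 684 of 1209 ND6 cone barcodes (56.6%; 53.7 to 59.4). *Opn1sw* alone was found in 14.0% of WT and 13.9% of ND6 cone barcodes, *Opn1mw* alone in 22.6% and 20.3%, and neither in 6.77% and 9.26%. Barcodes with neither had a low median depth, of 1433 UMIs in WT and 1364 in ND6. Some cone barcodes also passed the gate of another type, 23 in WT and 67 in ND6. Without them, neither opsin was found in 35 of 627 WT (5.58%) and 76 of 1142 ND6 barcodes (6.65%). In cone barcodes with fewer than 5 opsin UMIs, the summed bipolar list stood at 1095 CPM in WT and 1271 in ND6, beside 83.4 and 148 in all cone barcodes. The RPE list stood at 380 and 609, beside 103 and 70.9. The part of other cells in these barcodes was not tested. With at least 2 UMIs of each opsin required, 45.5% of WT and 46.9% of ND6 cone barcodes held both.

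Barcodes of other cells rarely held both. All rod-gene barcodes had median depths of 1768 UMIs in WT and 1370 in ND6. UMIs of both opsins were seen in 157 of 11073 in WT (1.42%) and 318 of 15228 in ND6 (2.09%). The barcodes with both were deeper, with medians of 17259 and 8709 UMIs. Rod-gene barcodes without a UMI of the gate genes, a choice that also removes barcodes with any other RNA of cones, had median depths of 1634 and 1305 UMIs. Both opsins were seen in 26 of 8580 of them in WT (0.303%) and 75 of 10235 in ND6 (0.733%). Those with both had medians of 3783.5 and 1833 UMIs. Thinned to 400 UMIs per barcode, the share with both opsins was 19.7% in WT cone barcodes and 0.0507% in all rod-gene barcodes (20.7% and 0.117% in ND6). No cone barcode had to be left out, since all had more UMIs than that. Detection of both opsins followed depth within the cones, from 24.0% to 73.6% of WT barcodes and from 32.8% to 74.2% of ND6 barcodes between the shallowest and the deepest range. Within each of the 4 ranges the WT and ND6 intervals overlapped. Since doublets were not called, how many barcodes with both opsins held more than 1 cell is not known.

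**Figure D2:**
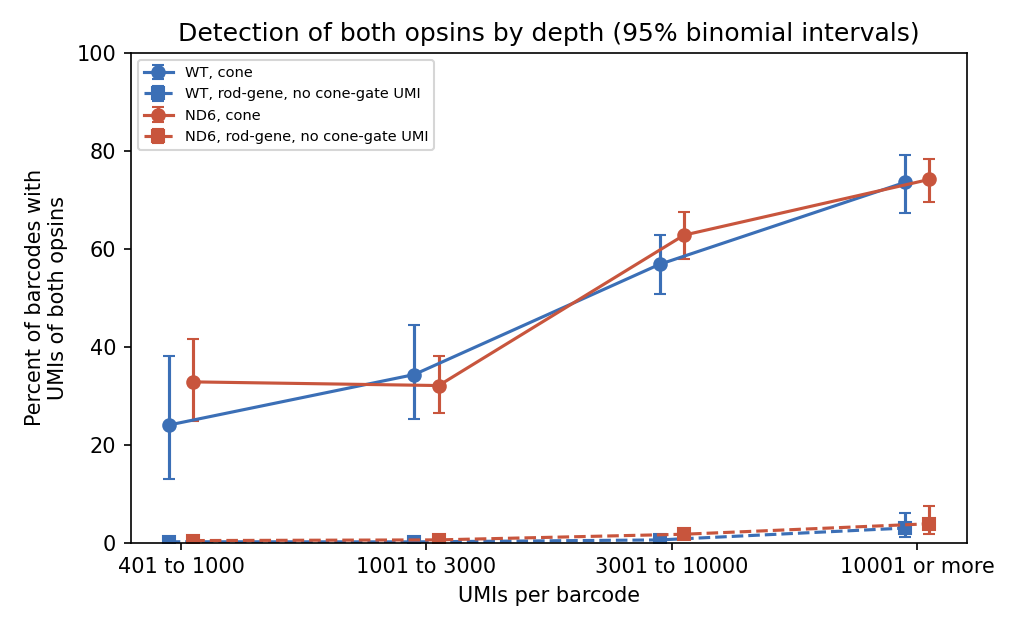
Percent of barcodes with UMIs of both opsins (vertical axis) in 4 ranges of UMIs per barcode (horizontal axis), for cone barcodes (circles, solid lines) and rod-gene barcodes without a UMI of the cone gate genes (squares, dashed lines) of WT and ND6. Bars are 95% Clopper-Pearson intervals. Cone barcodes climb to 73.6% in WT and 74.2% in ND6 above 10000 UMIs, while the rod-gene barcodes stay under 4%.

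Both opsins in one barcode did not mean equal amounts. In barcodes with at least 5 opsin UMIs (532 in WT and 977 in ND6), the median share of *Opn1mw* among opsin UMIs was 0.175 (95% interval of the median 0.151 to 0.212) in WT and 0.217 (0.185 to 0.238) in ND6. The quartiles lay far apart, at 0.0787 and 0.964 in WT and at 0.0909 and 0.962 in ND6. The share reached exactly 1 in 116 WT and 202 ND6 barcodes and exactly 0 in 61 and 111. Shares from 0.3 up to 0.9 were rare, with 10.5% of WT and 14.1% of ND6 barcodes. Cone barcodes therefore fell into a broad S-opsin-weighted group that tailed toward more *Opn1mw*, and a compact group with nearly pure *Opn1mw*.

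**Figure D3:**
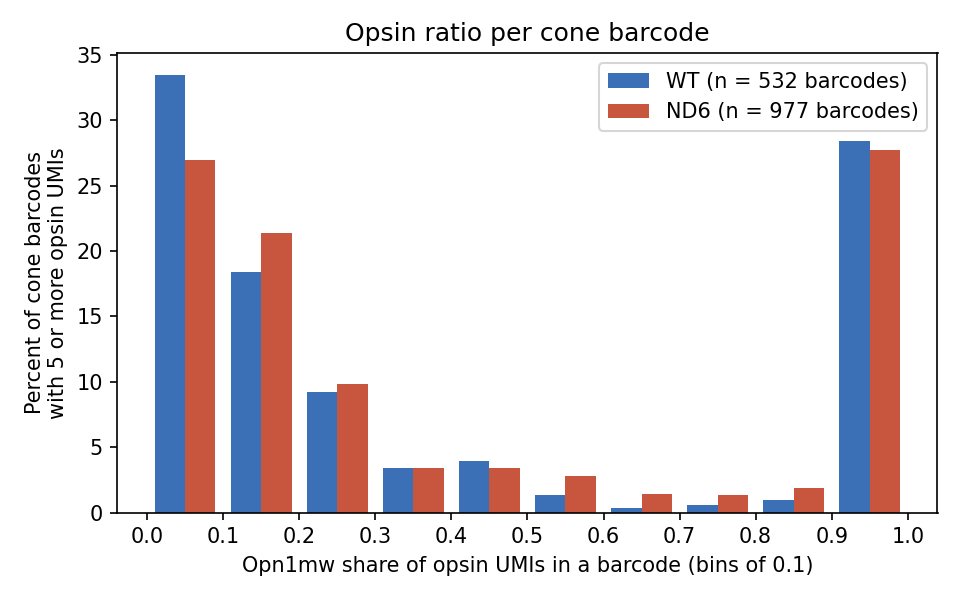
Percent of cone barcodes with 5 or more opsin UMIs (vertical axis) by the *Opn1mw* share of opsin UMIs, in bins 0.1 wide (horizontal axis), for 532 WT and 977 ND6 barcodes. Most barcodes lie at shares under 0.3 or above 0.9, and few lie between.

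**Figure D4:**
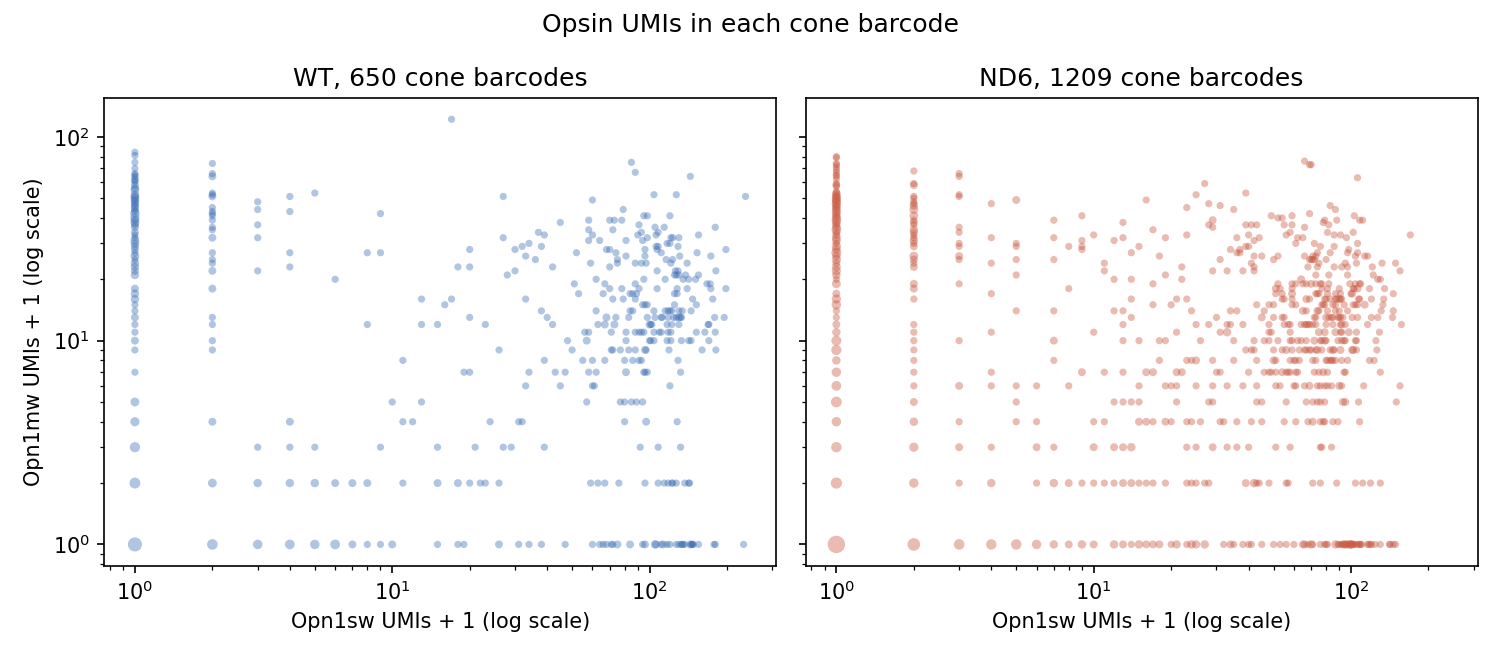
*Opn1sw* UMIs plus 1 (horizontal axis) against *Opn1mw* UMIs plus 1 (vertical axis), both on log scales, for each of 650 WT and 1209 ND6 cone barcodes, with larger points where barcodes coincide. A column of barcodes with *Opn1mw* and little or no *Opn1sw* stands apart from a cloud with up to 235 *Opn1sw* UMIs in WT and 169 in ND6 that spreads from no *Opn1mw* upward.

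Classes were drawn on that share: S-rich at 0.1 or less, M-rich at 0.9 or more, and mixed between. S-rich barcodes numbered 182 (34.2%; 30.2 to 38.4) in WT and 266 (27.2%; 24.5 to 30.1) in ND6. Mixed barcodes numbered 199 (37.4%; 33.3 to 41.7) and 440 (45.0%; 41.9 to 48.2), and M-rich barcodes 151 (28.4%; 24.6 to 32.4) and 271 (27.7%; 24.95 to 30.7). These are ranges and not cell types: 69 WT and 97 ND6 barcodes lay between 0.08 and 0.12, near the lower limit, while 6 and 7 lay between 0.88 and 0.92. With the gate at 2%, S-rich, mixed and M-rich barcodes were 50, 53 and 67 of 170 in WT and 77, 122 and 92 of 291 in ND6.

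The extreme classes each held some of the other opsin. In M-rich barcodes, whose definition caps it, *Opn1sw* stood at 20.1 CPM in WT and 27.4 in ND6, beside 78.0 and 114 CPM in all rod-gene barcodes and 25.2 and 54.2 in those without cone gate UMIs. At least 1 *Opn1sw* UMI was present in 23.2% of WT and 25.5% of ND6 M-rich barcodes. In S-rich barcodes *Opn1mw*, capped in the same way, stood at 336 and 252 CPM, beside 29.8 and 48.1 in all rod-gene barcodes, and 66.5% and 58.3% of them held at least 1 *Opn1mw* UMI. Total opsin RNA differed too, with a median of 104.5 opsin UMIs per S-rich barcode against 38 per M-rich barcode in WT, and 77 against 32 in ND6. Mixed barcodes held a median of 91 and 67. Since the classes were drawn on these same UMIs, the values describe them and were not tested.

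The classes were then compared in genes other than the opsins, M-rich over S-rich, within each library. Among 8380 genes with at least 50 UMIs over the M-rich and S-rich barcodes of each library, summed,, 20 were higher by a log2 ratio of at least 1 in WT and in ND6 alike (0.239%) and 14 were lower (0.167%). The ratios carry 0.5 UMIs added to each sum, and M-rich and S-rich barcodes come from the same 2 libraries, so they are not replicates of a condition. The median ratio over all genes was 0.01 in both libraries.

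On the lower side, *Syndig1l*, a SynDIG-family transmembrane protein, was counted 5 times in WT M-rich against 163 times in S-rich barcodes, and 19 against 253 times in ND6, log2 ratios of -4.74 and -3.82. *Ccdc136*, on the opposite strand with its start 7841 bases from the annotated 5′ end of *Opn1sw*, stood at 38.1 CPM in M-rich and 536 in S-rich barcodes in WT and at 57.8 and 660 in ND6 (-3.81 and -3.51). *Vax2*, the ventral factor, was counted 21 times in M-rich and 194 times in S-rich barcodes in WT, and 50 and 322 times in ND6 (-3.03 and -2.79). *Socs3*, an inhibitor of cytokine signalling, followed at -2.68 and -3.83, and the unnamed transcript *A930009A15Rik* at -2.30 and -3.65. *Vax2os*, named after its values were seen, runs antisense to *Vax2* and overlaps it by 938 bases. It was lower as well, at -2.48 and -2.08, with 102 against 574 CPM in WT and 213 against 901 in ND6.

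On the higher side stood *Gm44532*, a long intergenic RNA on chromosome 7 whose 3′ end lies 54180 bases from the start of *Nr2f2*. It was at 56.1 CPM in M-rich and 6.18 in S-rich barcodes in WT and at 70.4 and 8.47 in ND6, log2 ratios of 3.14 and 3.03. *Nr2f2* itself was at 76.7 and 14.3 CPM in WT and 62.3 and 7.17 in ND6 (2.41 and 3.09). *Kif4*, a chromosome-associated kinesin, had ratios of 2.55 and 2.01, *Alpk2*, an alpha-kinase, 1.92 and 1.78, and *Zfhx4*, a zinc finger homeobox factor, 2.14 and 1.69. Each of these 10 genes kept its direction in both libraries by the rule that named it.

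**Figure D5:**
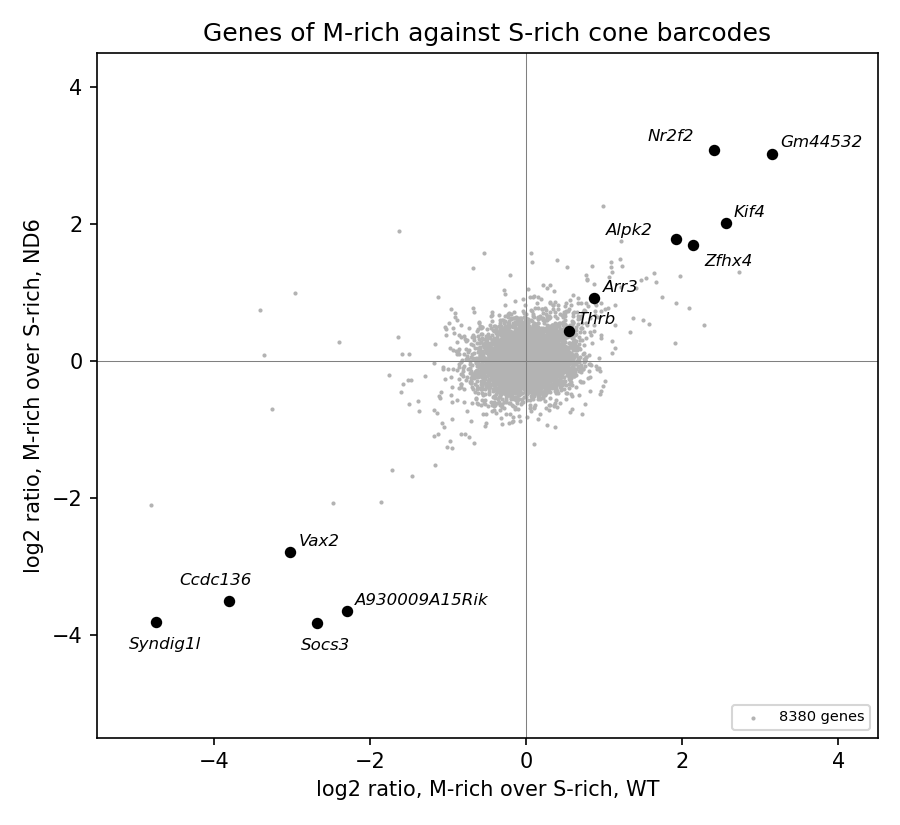
Log2 ratio of M-rich over S-rich cone barcodes in WT (horizontal axis) and in ND6 (vertical axis) for 8380 genes other than the opsins, with the 10 named genes, *Arr3* and *Thrb* in black. *Gm44532* and *Nr2f2* lie at the upper right, and *Syndig1l*, *Ccdc136* and *Vax2* at the lower left, far from the bulk of genes near 0.

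RNA of other cells differed between the classes as well. The summed RPE list stood at 198 CPM in WT M-rich against 83.4 in S-rich barcodes and at 73.4 against 38.1 in ND6, and the summed microglia or macrophage list at 126 against 16.6 CPM in WT and 3.61 against 3.26 in ND6. The bipolar, Müller and amacrine lists did not keep one direction. The bipolar list stood at 8.57 CPM in M-rich and 56.0 in S-rich barcodes in WT but at 167 and 53.8 in ND6. The Müller list stood at 66.4 and 134 in WT but at 80.7 and 60.3 in ND6. Lower in M-rich barcodes of both libraries were the RGC list (15.4 and 25.5 CPM in WT, 37.6 and 41.7 in ND6) and the horizontal list (3.43 and 3.48, 5.12 and 8.80). *Rpe65*, the RPE isomerase, was likewise higher in M-rich barcodes at 2.73 in WT and 1.29 in ND6. The part of such RNA in the other ratios was not tested. The rod list took 5.32% of M-rich and 5.24% of S-rich UMIs in WT and 5.62% and 6.13% in ND6.

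Pathway lists were read in the same contrast. For the 17 other genes of cone phototransduction, 1 was higher in M-rich barcodes by at least 0.5 in both libraries and none lower, beside 0.99% and 0.597% of all genes. It was *Arr3*, which quenches the active opsin, at 1922 CPM in M-rich and 1050 in S-rich barcodes in WT and 1632 and 860 in ND6 (0.87 and 0.92). *Gnat2*, which passes the signal from opsin to phosphodiesterase, had ratios of -0.02 and 0.14, and *Pde6c* 0.03 and 0.08. *Arr3*, *Gnat2* and *Pde6c* all belong to the cone gate, by which the barcodes were chosen. Of 17 cone fate and opsin choice factors with enough UMIs, *Nr2f2* was higher and *Vax2* and *Rxrg* were lower. *Rxrg* rested on few UMIs, 42 against 69 in WT and 76 against 120 in ND6, log2 ratios of -0.57 and -0.77. *Thrb* was at 386 and 265 CPM in WT and 380 and 279 in ND6, ratios of 0.54 and 0.45, the second of which missed the limit. *Rorb* (-0.27 and -0.08), *Rora* (-0.12 and -0.11) and *Crx* (-0.03 and -0.01) lay near 0. Of the dorsoventral list none of 14 had enough UMIs to enter, and of 2 S cone genes *Ccdc136* was lower while *Tafa3* was at -0.22 and -0.33.

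Dividing cone barcodes by *Vax2* and *Nr2f2* instead of by the opsins, a choice made after the ratios above were seen, gave the opsin values from the other side. Barcodes with a *Vax2* but no *Nr2f2* UMI (132 in WT and 314 in ND6) had a median *Opn1mw* share of 0.110 and 0.127, and 3.20% and 7.31% of those with 5 opsin UMIs were M-rich. Barcodes with *Nr2f2* but no *Vax2* (77 and 131) had a median share of 1 in both libraries, with 75.3% and 79.0% M-rich. Both opsins were detected in 81.8% and 78.0% of the first and in 45.5% and 41.2% of the second, at similar median depths (16328 and 15154 UMIs in WT, 13199 and 13314 in ND6). The few barcodes with UMIs of both factors (33 and 38) were the deepest, with medians of 33769 and 23807 UMIs, and had shares of 0.242 and 0.298. Most cone barcodes (408 in WT and 726 in ND6) held neither factor, at lower median depths of 5126 and 2989.5 UMIs. Their median shares were 0.174 and 0.228, and 25.9% and 26.8% of those with 5 opsin UMIs were M-rich. Since the factors were picked on the same cells, this is a description and no test.

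Between ND6 and WT, the same lists were compared over all cone barcodes. None of 17 phototransduction genes passed a log2 ratio of 0.5 in either direction. By that measure 13.2% of all genes were higher and 7.83% lower, and the list's median was -0.11 beside 0.01 over all genes. *Gnat2*, *Gngt2*, *Pde6c*, *Pde6h* and *Arr3* on this list are the gate genes, so the choice of barcodes constrained their levels in both libraries. The fate and opsin choice list had 3 of 19 genes higher and 1 lower. *Rorb* was the best counted of these, at 295 CPM in WT and 595 in ND6 (1.01; 0.94 to 1.08), and *Samd7*, a photoreceptor gene silencer, was lower, at 342 and 189 CPM (-0.85; -0.93 to -0.77). Rod-gene barcodes showed ratios of similar size, with *Rorb* at 266 and 601 CPM (1.18) and *Samd7* at 344 and 192 (-0.85). *Nr2f1* (24 and 55 UMIs) and *Tbx2* (21 and 50 UMIs) were the other higher ones, and their counting intervals included 0. *Thrb* was at 330 and 347 CPM (0.07; 0.00 to 0.14), *Rxrg* at 22.5 and 29.7 (0.40), *Vax2* at 50.1 and 62.0 (0.31) and *Nr2f2* at 32.9 and 24.3 (-0.44), none past the limit.

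Of the thyroid hormone genes, *Thra*, the second thyroid hormone receptor, was higher in ND6, at 78.3 and 114 CPM (0.54; 0.41 to 0.68), beside 76.3 and 106 CPM in rod-gene barcodes. Of 8 dorsoventral genes with enough UMIs 3 were higher and 2 lower, each on 100 UMIs or fewer in either library. Over all genes 13.2% were higher and 7.83% lower by the same limit. The counting intervals of *Ephb2* (-0.13 to 1.49), among the higher, and *Aldh1a3* (-2.02 to 0.30), among the lower, included 0. Those of *Efnb1* (0.29 to 1.45) and *Efnb2* (1.13 to 9.15, on 1 UMI in WT and 20 in ND6), higher, and *Bambi* (-1.45 to -0.30), lower, did not. Of 7 genes of retinoid handling only *Rdh8*, an all-trans-retinal reductase of outer segments, passed the limit. It was lower on 38 UMIs in each library, and its counting interval (-1.23 to 0.14) included 0. None of the 2 S cone genes did, with *Ccdc136* at 336 and 419 CPM (0.32) and *Tafa3* at 94.3 and 88.4. Among other opsins, *Rrh* was lower in ND6 on 33 and 27 UMIs, and *Opn3*, *Opn4* and *Opn5* had at most 3 UMIs in either library.

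Across 16 sums (the gated types of both libraries with at least 20 barcodes), the genes most like each opsin were ranked by Pearson's r of log2(CPM + 1) over 11877 genes, as a description. For *Opn1sw* they were *Pde6h* (0.961), *Arr3* (0.930), *Agr2*, a disulfide isomerase family member (0.926), *Opn1mw* (0.916) and *Cnga3* (0.915). For *Opn1mw* they were *Arr3* (0.934), *Gnat2* (0.921), *Thrb* (0.917), *Opn1sw* (0.916) and *Pde6h* (0.916). *Pde6h*, *Arr3* and *Gnat2* belong to the cone gate, so their place follows from how the barcodes were chosen.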

How the data were processed

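Retinas were measured by 10x Genomics 3′ scRNA-Seq, 1 library of WT and 1 of ND6 mice. The authors aligned reads to mm10 with Cell Ranger 3.0.2 and deposited raw counts of UMIs per gene and barcode for the whole barcode list, without normalization. The annotation release is not given in the sources used here. Per the labels, both samples are replicate 1. Totals were 77958836 (WT) and 80358255 (ND6) UMIs.

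Barcodes with more than 400 UMIs and 200 genes and 20% or less mtDNA-encoded UMIs were kept, the limits in the study's methods. Type gates required 3 UMIs and 0.2% of UMIs from a marker list, and rod-gene barcodes passed no gate and had 3 UMIs and 2% from rod genes. UMIs were summed per library and gate and given as CPM, with exact Poisson, Clopper-Pearson (95%) or conditional intervals, computed with Python 3.11.15, numpy 2.4.6 and scipy 1.17.1 and tested on simulated data. A floor of 3 counts stands for 0. For thinned shares, the chance of drawing each opsin in 400 UMIs was computed exactly. Genes called in ND6 against WT had at least 20 UMIs and a log2 ratio of 0.5 with 0.5 UMIs added. Named were both opsins, the 5 genes most like each, the 5 highest and 5 lowest in M-rich over S-rich barcodes by the smaller ratio of both libraries, and listed genes on which a result turned. Members and lists were chosen with earlier results of these data known. Gate and class alternatives are described in the closing section. No replicate test was possible, and clustering and doublet calling were not done. Results for some genes of the lists are not reported here.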

Additional observations from a re-analysis of the deposited data

Results flagged for a closer look

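Outside the kept cone barcodes, 3 chosen sets were looked at, and at least 1 opsin was higher in ND6 than in WT in each. No log2 ratio was given above for them. In barcodes of 10 to 100 UMIs, whose content was not tested, *Opn1mw* was at 342 CPM in ND6 (133 UMIs) and 212 CPM in WT (48 UMIs), a log2 ratio of 0.69 (0.20 to 1.19), while *Opn1sw* was at 542 and 557 CPM. In cone barcodes over the mtDNA limit (152 in ND6 and 300 in WT), *Opn1mw* was at 1744 CPM in ND6 and 1463 in WT (0.25; 0.07 to 0.44). *Opn1sw* went the other way there, at 2288 and 3794 CPM (-0.73; -0.88 to -0.58). In rod-gene barcodes without a UMI of the cone gate genes, *Opn1sw* was at 54.2 CPM in ND6 and 25.2 in WT (1.10; 0.96 to 1.25) and *Opn1mw* at 27.9 and 11.3 (1.30; 1.09 to 1.52). Each higher value in these 3 sets was flagged because its counting interval lay above the WT library, and lower values were not flagged. Higher levels were not limited to them. In all rod-gene barcodes the log2 ratio was 0.55 (0.49 to 0.61) for *Opn1sw* and 0.69 (0.59 to 0.79) for *Opn1mw*. On few UMIs, both opsins in Müller barcodes and *Opn1sw* in microglia or macrophage barcodes also had intervals above 0. The intervals in amacrine, bipolar and RPE barcodes included 0. With 1 library per group none was tested.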

How the results depend on the processing

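No paired analysis was possible because each group is 1 library and the groups share only replicate number 1, and for the same reason none was left out. Of 146 recomputed values that answer a comparison, 97 stayed within the counting interval of the reported value (counts of genes within 1.5 times), 43 moved beyond it and 6 reversed. The causes were not tested unless the alternative itself shows them. The cone gate of 2% and the ranges of depth were added after seeing the data.

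The log2 ratio of *Opn1sw*, ND6 over WT, reversed to 0.15 at the 2% gate and to 1.44 and 0.28 in barcodes of up to 1000 UMIs and of more than 1000 and up to 3000 UMIs. It moved to -0.27 above 10000 UMIs, to -0.26 without the 5% of barcodes with the most UMIs and to -0.060 as a mean of CPM per barcode. That of *Opn1mw* reversed to -0.013 in barcodes of more than 3000 and up to 10000 UMIs, with an interval (-0.063 to 0.037) that included 0. It moved to 1.02 and 1.14 in the lower ranges, 0.17 with a gate of 5 UMIs and 0.5%, 0.044 without the top 5% and 0.20 as a mean per barcode. The ratio of *Opn1mw* to *Opn1sw* reversed to -0.024 (-0.095 to 0.047) at the 2% gate and to -0.41 (-0.94 to 0.15) in barcodes of up to 1000 UMIs. Both of these intervals included 0. The ratio moved to 0.87, 0.15 and 0.41 in the higher ranges and 0.35 with the gate of 5 UMIs and 0.5%. Median-of-ratios scaling (a shift of 0.01) and subtraction of the level in rod-gene barcodes without cone gate UMIs kept every level and ratio in its interval.

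Both opsins were found in 46.5% of WT and 52.5% of ND6 cone barcodes without the mtDNA limit, 63.8% and 62.7% with the gate of 5 UMIs and 0.5%, 45.5% and 46.9% with 2 UMIs of each, and 19.7% and 20.7% after thinning to 400 UMIs. In ND6 the share was 59.5% with more than 1000 UMIs and 61.5% at the 2% gate. At that gate the WT median *Opn1mw* share was 0.275, the WT classes S-rich, mixed and M-rich were 29.4%, 31.2% and 39.4%, and the ND6 M-rich class was 31.6%. Limits of 0.05 and 0.95 gave 18.0% S-rich and 55.6% mixed in WT and 16.3% and 58.0% in ND6, and limits of 0.2 and 0.8 gave 53.0% and 17.7% in WT and 48.6% and 21.8% in ND6, since fewer or more barcodes lie between them. Genes past a log2 ratio of 0.5 numbered 1648 higher and 975 lower, but 4358 and 2969 with a minimum of 1 UMI and 744 and 579 with 100 UMIs. As means of CPM per barcode, cone over rod-gene log2 ratios were 6.79 and 6.72 in WT and 5.86 and 5.57 in ND6 for *Opn1sw* and *Opn1mw*, against 5.60, 5.43, 4.87 and 4.85 from sums. The 10 genes named between M-rich and S-rich barcodes kept their direction under every alternative, and 14 to 17 of 20 higher and 12 to 14 of 14 lower calls were shared with each.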
